A study of Mus musculus with 8 samples.

Results

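The 4 cultured libraries of the series, of 8 in all, were compared here: 2 of expanded teratoma-derived myogenic progenitors (TE) and 2 of expanded satellite cells (SE), taken by their group labels. TE cells came from 1 line of EGFP-labelled E14 mouse embryonic stem cells that had formed a teratoma in the irradiated and injured muscle of an immunodeficient, dystrophin-deficient mouse (NSG-mdx4Cv), and they were sorted as CD31- CD45- α7-integrin+ VCAM-1+ before culture. SE cells were the endogenous muscle stem cells of adult muscle. Both lines were grown on gelatin in the same myogenic expansion medium and were taken at passage 8, and neither carried a further treatment or deletion according to the labels. The strain, sex, age and number of the animals that gave the satellite cells are not given in the sources used here. The study names 2 biological replicates for each group, and whether these were separate cultures is not given. Cell origin, genetic background, sex and developmental age therefore cannot be told apart in this comparison. Each p-value below measures only the spread between such libraries. The freshly sorted cells of the same 2 origins (TF and SF, 2 libraries each) entered the model for their share of the spread and are mentioned only where a value helps to place a result.

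Satellite cells are the resident stem cells of skeletal muscle. They carry the transcription factor Pax7, and on activation they express Myod1, divide as myoblasts, and then switch on Myog and the contractile proteins. In culture this program runs beside others that any growing cell sets by its surroundings, among them the amino acid response driven by Atf4, the oxygen-sensing response driven by the hypoxia-inducible factors and the oxidant defence driven by Nrf2, and beside the positional record of the Hox genes, which marks where along the body a mesenchymal or myogenic cell arose.

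The TE libraries held 19198820 and 18342673 estimated counts and the SE libraries 21146632 and 17035856, and from 17% to 18.8% of them belonged to Rn45s, the precursor of ribosomal RNA. Levels are given as normalized counts, that is, counts brought to a common library size, and log2 fold changes (TE over SE) are given ± their standard error. The TE replicates were close, with 281 of 10720 genes more than 2-fold apart (among genes averaging 50 or more), whereas 1452 of 11268 genes lay that far apart between the SE replicates. Both lines bore the defining myogenic transcripts. Pax7 stood at 1621 and 1338 normalized counts in TE and 1839.6 and 1252 in SE and Itga7, the integrin used for the sort, at 5091 and 5469 and 3850.5 and 6146, so that the ranges of the 2 lines overlapped for both genes.

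Of 17582 genes tested with edgeR's quasi-likelihood test, 1268 (7.21%) passed a Benjamini-Hochberg adjusted p of 0.05 and a fold of 1.25, with 553 higher in TE (3.15%) and 715 lower (4.07%). These percentages are the background for each count below. More than 8-fold differences were held by 125 of the higher and 269 of the lower genes, and the median over all tested genes was -0.00339 (log2). In all 1268 called genes the TE and SE values did not overlap, so that this is no trait of any list, and 4200 tested genes lay without overlap in the higher and 4586 in the lower direction. The counts depended on how many TE libraries were used: 278 higher and 388 lower passed without TE replicate 1, 272 and 381 without TE replicate 2, and 741 and 957 without SE replicate 2. None of the called genes named here changed its direction under the 15 alternatives run.

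**Figure D1:**
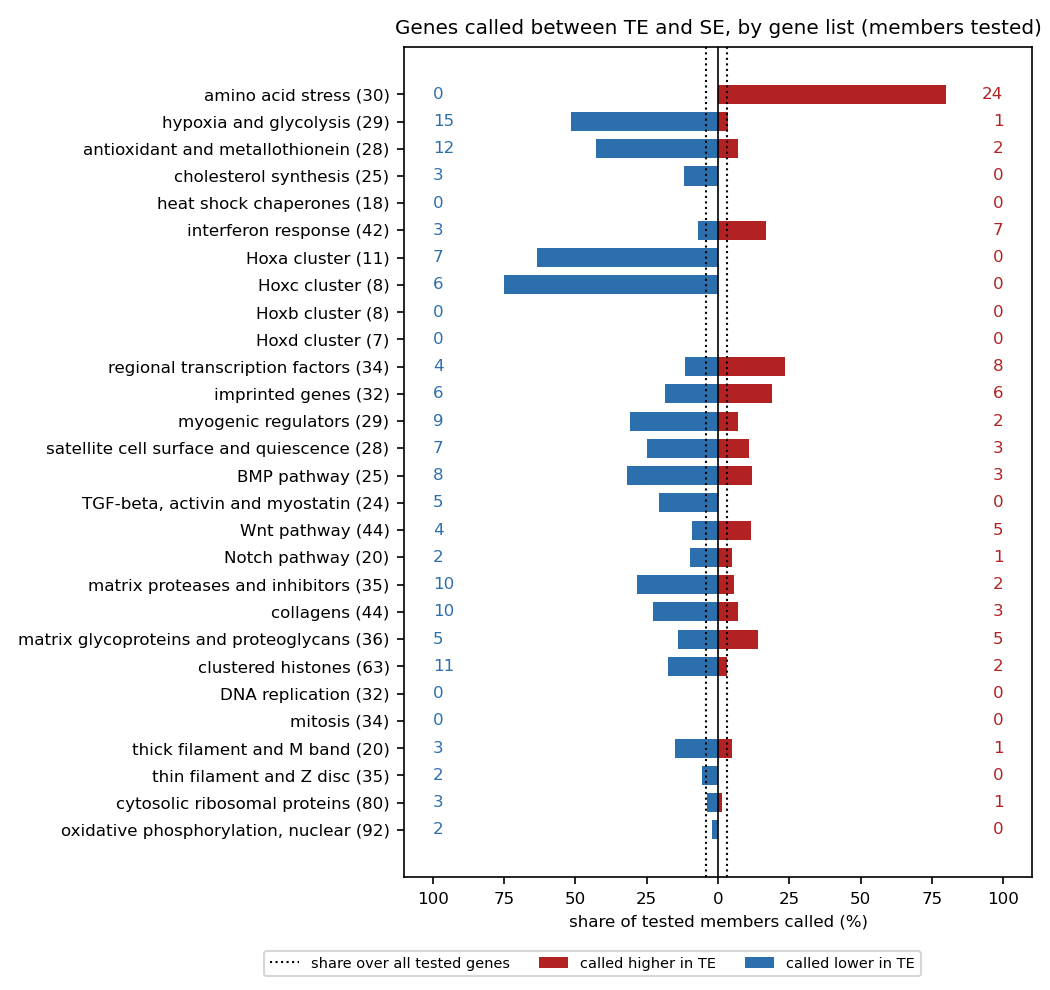
Share of the tested members of 28 gene lists that were called higher (red, to the right) or lower (blue, to the left) in TE than in SE, in percent of the members tested; the number called stands at each edge, the number tested beside each name, and the dotted lines mark 3.15% and 4.07%, the shares over all tested genes. Amino acid stress calls lie wholly to the right with 24 of 30, and those of the Hoxa and Hoxc clusters wholly to the left. The hypoxia and antioxidant calls lie mostly to the left, with 15 lower and 1 higher and with 12 lower and 2 higher.

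Of all the gene lists examined, that of the amino acid response had the highest share of calls, 80%. Cells that run short of an amino acid, or that carry unfolded protein in the endoplasmic reticulum, translate the transcription factor Atf4, which switches on amino acid synthesis, import and transfer RNA charging, together with a set of feedback regulators. Of 30 listed genes of this response, 24 were higher in TE and none was lower, and the median difference was 1.51 (log2) against a median near 0 over all genes. The TE libraries held 11576 and 12022 normalized counts of Atf4 itself and the SE libraries 3734 and 5015, a log2 fold change of 1.43 ± 0.23 (adjusted p = 0.00559, edgeR). Both TE libraries were high for Atf4 and both SE libraries low.

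Several of these genes carry, close to their start, the composite element that Atf4 binds with a C/EBP partner. The letters TGATGNAA were searched on both strands from 250 bases before to 50 after each start in RefSeq (GRCm38.p6), where 24 of the 30 listed genes had a window. They stood in 6 of the 19 called genes with a window (Asns, Trib3, Chac1, Vldlr, Nupr1 and Gars), or 31.6%. Of the 5 that were not called, 2 held them (Slc7a11 and Pycr1), or 40%. Among all 13416 tested genes with a window the share was 3.03%. The list was made of genes of this response, so its share against all genes does not bear on TE against SE. A match only describes the letters, and none was tested for binding. The 250 bases before the start of 3 of them are shown because the element lies within them, with the match in capitals. Asns lies on the minus strand at chr6:7693210-7693459, Chac1 on the plus strand at chr2:119350992-119351241 and Nupr1 on the minus strand at chr7:126625471-126625720, and the match begins 23, 193 and 110 bases before the start.
Asns: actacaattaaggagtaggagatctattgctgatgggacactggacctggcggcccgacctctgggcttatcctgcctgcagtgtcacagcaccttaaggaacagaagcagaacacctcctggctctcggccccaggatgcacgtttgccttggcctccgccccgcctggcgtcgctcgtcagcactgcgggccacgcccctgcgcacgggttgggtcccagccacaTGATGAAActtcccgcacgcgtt
Chac1: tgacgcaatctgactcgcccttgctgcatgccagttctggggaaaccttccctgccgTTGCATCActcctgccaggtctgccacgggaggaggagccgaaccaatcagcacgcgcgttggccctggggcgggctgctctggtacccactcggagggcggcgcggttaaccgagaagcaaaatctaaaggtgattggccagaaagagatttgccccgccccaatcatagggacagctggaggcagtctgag
Nupr1: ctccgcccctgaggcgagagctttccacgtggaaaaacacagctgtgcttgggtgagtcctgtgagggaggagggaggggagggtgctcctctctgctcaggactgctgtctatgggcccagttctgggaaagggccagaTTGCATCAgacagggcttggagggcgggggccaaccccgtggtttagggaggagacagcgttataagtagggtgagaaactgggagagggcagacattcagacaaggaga

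Among the enzymes, Asns, which makes asparagine, stood at 6572 and 6339 normalized counts in TE and 1042 and 1633 in SE (2.27 ± 0.23). Cth, which makes cysteine from cystathionine, had the largest fold of the list at 1216 and 1270.5 against 93.6 and 59.5 (4.02 ± 0.78). All 3 enzymes of serine synthesis were higher: Phgdh, Psat1 and Psph differed by 1.24, 1.42 and 1.91 (log2), and the folate enzymes that take up the serine carbon, Mthfd2 and Shmt2, by 1.95 and 0.83. Psph, the last step, stood at 1526 and 1298 in TE and 406 and 346 in SE. Cbs, which acts just before Cth, was not called and was at or under 8.3 normalized counts in each of the 4 libraries.

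Several amino acid carriers of the list were higher as well. Outside the list, Slc38a1, Slc38a3, Slc16a10 and Slc7a14 were called lower, and Slc1a4 and Slc6a9 higher. Slc7a5 and Slc3a2 together form the main importer of large neutral amino acids, and both lay apart, Slc7a5 at 13208 and 12921 in TE against 2741 and 4959.7 in SE and Slc3a2 at 7748 and 7487 against 1728 and 2918. The arginine and lysine carriers Slc7a3 and Slc7a1 were higher by 3.57 and 1.59 (log2). The cystine carrier Slc7a11 did not pass (935 and 914 against 551 and 305, adjusted p = 0.117). Over the 316 tested genes named as solute carriers 9 were higher and 21 lower, with a median of -0.016, and the lower count was 5 without TE replicate 1 and 8 without TE replicate 2, and the higher count 14 without SE replicate 2. Transfer RNA charging was represented by Gars, for glycine, at 17763 and 16343 against 4009 and 4602 (1.99 ± 0.20), whereas Sars, Nars and Wars differed by 0.91, 0.85 and 0.92 and Mars did not pass (0.65, adjusted p = 0.0744).

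The feedback and stress regulators of the response showed some of its widest gaps. Trib3, a pseudokinase induced by Atf4, stood at 3770.3 and 3253 normalized counts in TE and 181 and 375 in SE (3.66 ± 0.60). Chac1, which breaks down glutathione, stood at 1349 and 1620.4 against 156 and 285, and Ddit3, the stress factor CHOP, at 1252 and 1331 against 211 and 365. Sesn2, a leucine sensor that restrains mTORC1, differed by 1.82 ± 0.25. The list's median stayed between 1.38 and 1.78 under every alternative, and 18 of the 24 calls were kept without TE replicate 1 and 17 without TE replicate 2. The calls lost there were those of Shmt2, Aldh18a1, Sars, Wars and Nars in both cases, of Psph without TE replicate 1, and of Cebpb and Vldlr without TE replicate 2, with adjusted p from 0.0549 to 0.214. Within the SE replicates, 22 of the 30 genes were higher in replicate 2, by a median of 0.39 (log2). Of the list, Asns, Mthfd2 and Gars lie on chromosome 6, whose genes were shifted as a whole (given further on), and without these 3 the count was 21 of 27 with a median of 1.42. The chaperones of the heat shock response, another stress program, had no call among 18 genes by edgeR, with 8 at an unadjusted p under 0.05 and 5 called lower by DESeq2.

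**Figure D2:**
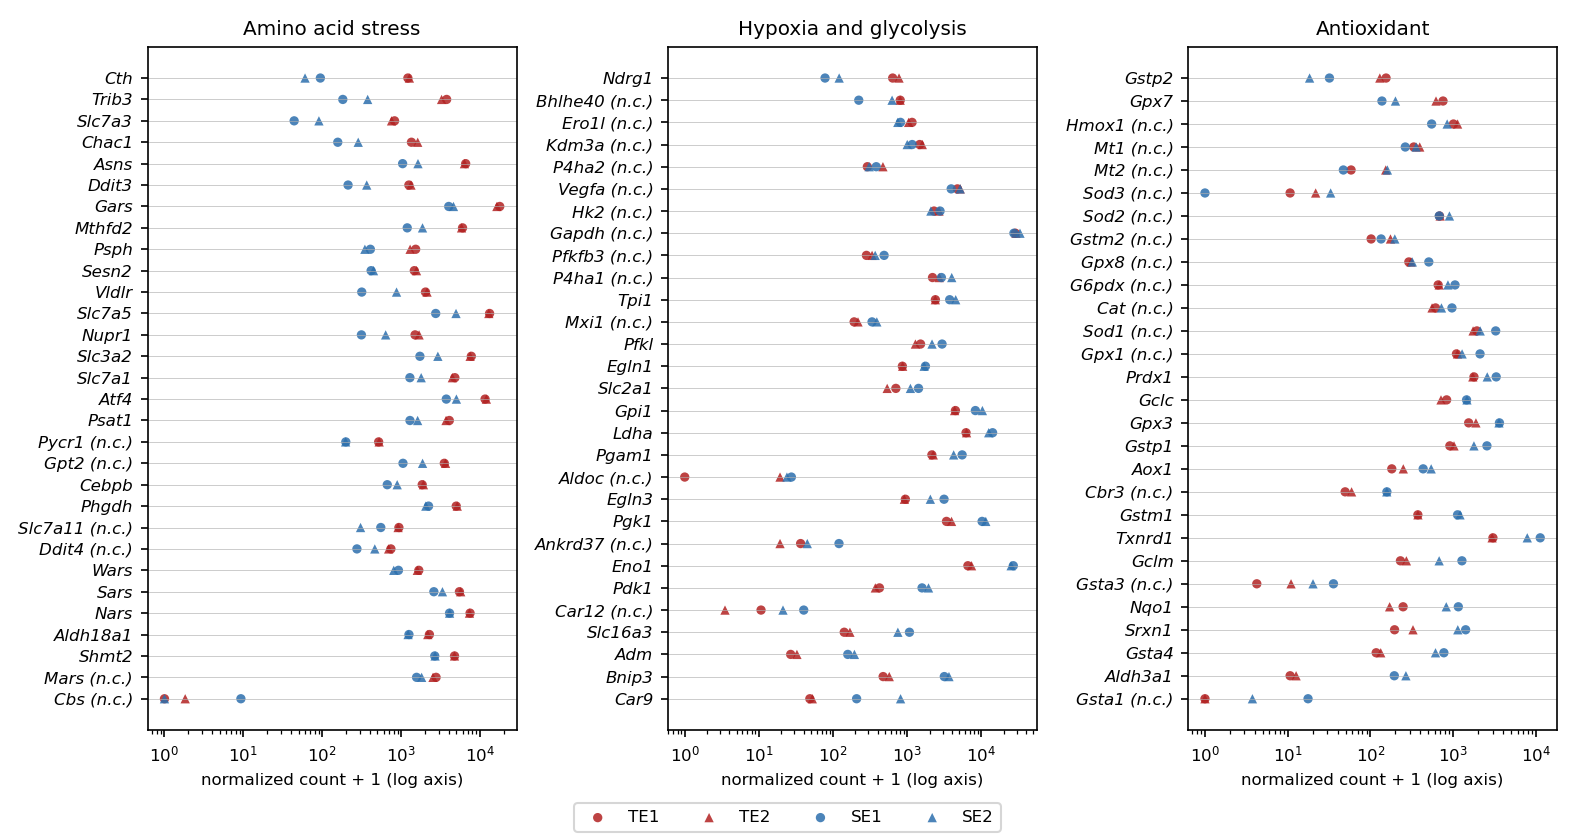
Normalized count + 1 (logarithmic axis) of each tested member of the amino acid stress, hypoxia and glycolysis, and antioxidant lists in TE replicates 1 and 2 (red circle and triangle) and SE replicates 1 and 2 (blue circle and triangle), ordered by fold change; n.c. marks a gene not called. In the left panel 24 genes are called, all with the red points to the right as their call requires, and in the middle and right panels 15 and 12 genes are called lower.

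Genes of the hypoxia response and of glycolysis ran the other way. When oxygen is short, hypoxia-inducible factors switch on glucose uptake, glycolysis, lactate export and pH control, and switch mitochondrial fuel use down. Of 29 listed genes 15 were lower in TE and 1 was higher, and the median was -1.03 (log2). Car9, a surface carbonic anhydrase that is among the most oxygen-dependent transcripts, stood at 47.6 and 51.5 normalized counts in TE and 207 and 813 in SE (-3.36 ± 0.63). Bnip3, which marks mitochondria for removal, stood at 472 and 572 against 3161 and 3655 (-2.71 ± 0.26, adjusted p = 0.000508 from edgeR), and Pdk1, which closes the entry of pyruvate into mitochondria, at 422 and 371 against 1584 and 1937 (-2.15 ± 0.22). Of the 3, Car9 had the widest distance between the SE replicates.

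The windows of Bnip3 and Car9 are shown because they hold the core letters bound by hypoxia-inducible factors, ACGTG or GCGTG on either strand, here in capitals. The letters are common: 13 of the 15 genes called lower held them, or 86.7%, as did 90.9% of the 11 uncalled genes with a window. Among all 13416 tested genes with a window the share was 62%. The Bnip3 window is on the minus strand at chr7:138909507-138909756 and the Car9 window on the plus strand at chr4:43506776-43507025, both in GRCm38.p6 from RefSeq.
Bnip3: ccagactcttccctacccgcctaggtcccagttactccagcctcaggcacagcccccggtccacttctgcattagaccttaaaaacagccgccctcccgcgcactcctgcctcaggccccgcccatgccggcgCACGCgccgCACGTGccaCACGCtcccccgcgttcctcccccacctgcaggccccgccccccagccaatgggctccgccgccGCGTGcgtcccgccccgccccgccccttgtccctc
Car9: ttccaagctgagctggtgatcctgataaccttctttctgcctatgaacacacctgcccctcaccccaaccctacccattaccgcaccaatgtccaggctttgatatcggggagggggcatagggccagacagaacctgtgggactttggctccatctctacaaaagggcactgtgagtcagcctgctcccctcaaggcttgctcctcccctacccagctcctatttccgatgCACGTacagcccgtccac

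Along the glycolytic chain, 6 enzymes were lower in TE: Gpi1 (-1.08), Pfkl (-0.87), Tpi1 (-0.78), Pgk1 (-1.56), Pgam1 (-1.15) and Eno1 (-1.90). Gapdh, between Tpi1 and Pgk1, did not pass and overlapped between the lines (28684 and 29254 against 27445 and 33157, adjusted p = 0.951), and neither did the entry enzyme Hk2 (2299 and 2684 against 2772 and 2085). At the ends of the chain the glucose carrier Slc2a1 differed by -1.03, the lactate dehydrogenase gene Ldha by -1.09 and the lactate exporter Slc16a3 by -2.56. Ldha stood at 6211 and 6315 in TE and 14171 and 12552 in SE. The muscle enolase Eno3 was lower as well (-0.83). The hypoxia and glycolysis list had 5 tested members on chromosome 6, whose genes were higher in TE as a group (median 0.585, given further on). Of these 5, Tpi1 alone was called, and the others did not pass. The part of the chromosome's shift in the values of these members, called or not, was not tested.

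Not every oxygen-dependent gene took part. Vegfa, the endothelial growth factor, overlapped between the lines at 4748 and 5180.2 and 3916 and 5164 (0.13 ± 0.20, adjusted p = 0.821 from edgeR), and Kdm3a, P4ha1 and Pfkfb3 were not called. The oxygen sensors Egln3 and Egln1, themselves induced by hypoxia, were lower (Egln3 by -1.48 on the log2 scale). Ndrg1 went against the rest, at 636 and 774 in TE and 77 and 119.9 in SE (2.84 ± 0.27). The number of calls rested on both TE libraries, with 5 lower calls without TE replicate 1 and 7 without TE replicate 2, while the median stayed between -1.08 and -0.921. Car9 was not called without TE replicate 1 or without SE replicate 2, Ldha was lost without either TE replicate, and Slc2a1 was lost without TE replicate 1, TE replicate 2 or SE replicate 1. Cell density and oxygen at harvest are not given in the sources used here, and their part was not tested.

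Eno1 has a near-identical copy with which reads can be shared. Eno1b, an intronless copy of Eno1, stood at 5398 and 5250 normalized counts in TE and 260.4 and 214 in SE, and the sum of both was 11976 and 12617 in TE and 27202 and 25397 in SE, a log2 ratio of -1.1 in place of -1.90. The same was seen more sharply in the ribosomal protein gene Rpl34. It stood at 262 and 231 in TE and 4356 and 4424 in SE, its pseudogene Rpl34-ps1 at 4152 and 4129.9 and 1.51 and 0.915, and their sums were 4413 and 4361 and 4357 and 4425. Eno1b was not called by DESeq2 (adjusted p = 0.0857). Rpl34 and its pseudogene were both called, in opposite directions, while the sums differed by a log2 ratio of -0.00133. Gm9855 with Tdg, Atp6v0c-ps2 with Atp6v0c and Eif3j2 with Eif3j1 likewise had a member at 0 in both libraries of one line, with log2 ratios of the sums of 0.827, -0.296 and 0.305. The values of single members of such pairs are uncertain, and sequence differences between the genetic backgrounds as their source were not tested.

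The oxidant defence genes formed a further group that was lower in TE. Nrf2 and its partners induce enzymes that make glutathione, reduce thioredoxin and conjugate or reduce electrophiles. Of 28 tested genes 12 were lower and 2 were higher, with a median of -0.833. Aldh3a1, an aldehyde dehydrogenase, stood at 9.69 and 11.6 normalized counts in TE and 193 and 267 in SE (-4.42 ± 0.59). Srxn1, which repairs over-oxidised peroxiredoxins, stood at 195 and 326 against 1414 and 1136 and Nqo1, a quinone reductase, at 247 and 169.5 against 1153 and 824. The 2 lines were also apart for both subunits of the enzyme that limits glutathione synthesis, Gclm (-1.96) and Gclc (-0.92), and for thioredoxin reductase Txnrd1 (-1.68).

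The defence was not lower throughout. Hmox1, which degrades heme, stood at 1006 and 1129 in TE and 548 and 845 in SE (adjusted p = 0.211, edgeR), and the metallothionein Mt1 at 333 and 393 against 263 and 355, neither called. Gpx7, a peroxidase of the endoplasmic reticulum, was higher at 753 and 619 against 137 and 199.6 (2.03 ± 0.31). Gstp2 was higher and its near copy Gstp1 lower, and their sum was 1064 and 1151 in TE and 2588 and 1798 in SE. With either TE replicate left out, 7 of the 14 calls of the list remained, with adjusted p from 0.0585 to 0.37 for those lost, Nqo1 among them without TE replicate 2 and Gclm without TE replicate 1.

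Genes of chromosome 6 were higher in TE as a group. Over the 538 genes of the chromosome that averaged 50 or more normalized counts, the median log2 fold change was 0.585 and 82.3% were above 0. The medians of the other autosomes lay between -0.0659 and 0.071. Of the tested genes of chromosome 6, 12% were called higher (109 of 911) and 3.51% lower, so that the chromosome held 19.7% of all genes called higher and 5.25% of the genes placed. Without it, 2.66% of the tested genes were called higher. The shift was alike for each pair of libraries, from 0.566 for TE replicate 2 over SE replicate 1 to 0.656 for TE replicate 2 over SE replicate 2, and it was absent between the replicates (-0.000115 in TE and -0.04 in SE). Between the freshly sorted cells (TF over SF) the chromosome 6 median was 0.708, with the other autosomes between 0.0598 and 0.304. The 109 genes include Col1a2, Cdkn1b, Fbln2, Adamts9 and Actg2, which are described with their programs, and the copy number of the chromosome was not measured here. Of the 8 tested genes of chromosome Y, 4 were called lower and none higher. The sex of the satellite cell donors is not given, so its part here cannot be told apart from that of origin.

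**Figure D3:**
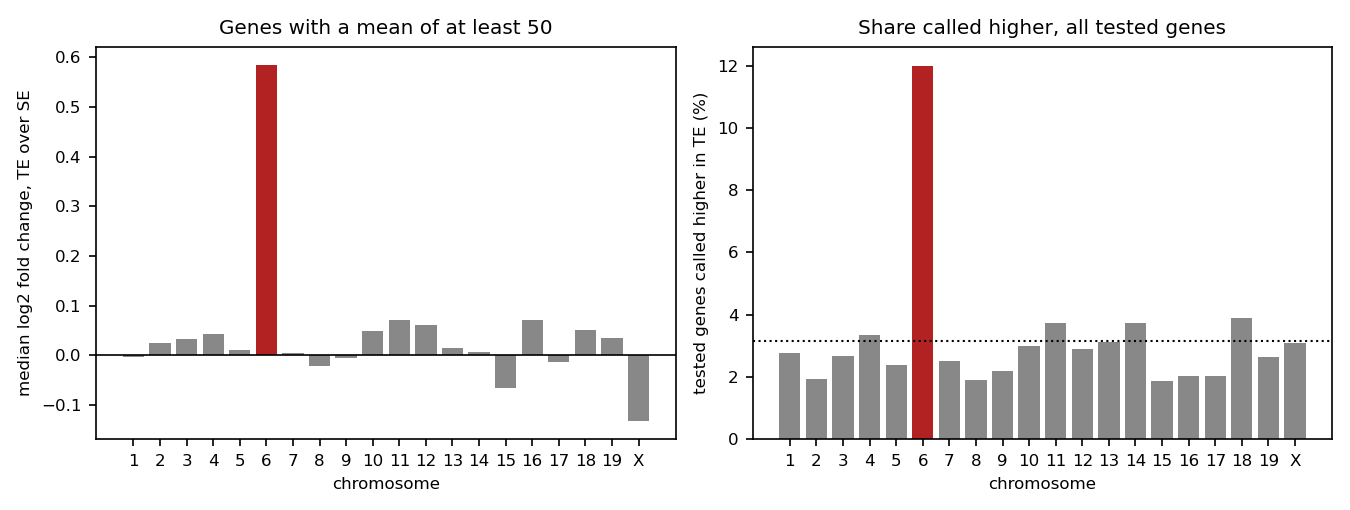
Left, median log2 fold change (TE over SE) of the genes of each chromosome that averaged 50 or more normalized counts; right, share of all tested genes of each chromosome called higher in TE, in percent, with the dotted line at 3.15% for all genes. Chromosome 6 (red) stands apart with 0.585 and 12%, and the other autosomes lie between -0.0659 and 0.071.

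The positional genes separated the lines by cluster. Hox genes stand in 4 clusters and are switched on in order along the body axis, the low-numbered genes towards the head. Of the 11 tested genes of the Hoxa cluster (chr6:52155590-52260880) 7 were lower in TE, and of the 8 of the Hoxc cluster (chr15:102921103-103036852) 6 were, and none was higher in either. None of the 8 tested Hoxb and 7 tested Hoxd genes was called by edgeR, with 0 and 1 at an unadjusted p under 0.05 and 0 and 1 called by DESeq2, while DESeq2 called 11 Hoxa genes. The Hoxa genes lie on chromosome 6 and went against its shift, as 7 of the 32 genes of the chromosome called lower.

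In SE the expressed Hoxa and Hoxc genes reached from the front to the back of the clusters. Hoxc10 stood at 619 and 616 normalized counts in SE and 2.42 and 0 in TE, at least 251-fold lower when TE is set to the limit of 3 counts per library (adjusted p = 0.000231, edgeR). Hoxa9 stood at 282 and 261 against 0 in both TE libraries, at least 111-fold lower, and Hoxc9 at 267 and 239.8 against 0 in both, at least 103-fold lower. Hoxa11 and Hoxc11 were at 0 in both TE libraries as well. Hoxa10, at 385 and 258 in SE, kept a trace in 1 TE library (0 and 9.14).

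TE cells were low over both clusters and not only at their back ends. The freshly sorted cells differed by cluster. The median Hoxa level (log2 of normalized count + 1) was 5.06 and 4.51 in TF and 5.83 and 5.23 in SF, against 0 in both TE libraries. The Hoxc median was 1.86 and 3 in TF and 7.1 and 6.8 in SF. Why Hoxa was present in TF and low in TE was not tested. Hoxa3 stood at 58.9 and 81.5 in SE and 0 in both TE libraries, and Hoxc4 at 136 and 101 against 0 and 3.32. In the Hoxb and Hoxd clusters the highest levels were those of Hoxd8, at 21 and 14.1 in TE and 65.7 and 65.9 in SE (adjusted p = 0.144, edgeR), and of Hoxb4, at 22.6 and 2.49 and 7.55 and 2.75. All 13 calls but 3 were kept when a TE library was left out: Hoxa5, Hoxa6 and Hoxc5 were lost without either TE replicate, at adjusted p from 0.0701 to 0.152, and Hoxa6 also without either SE replicate.

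**Figure D4:**
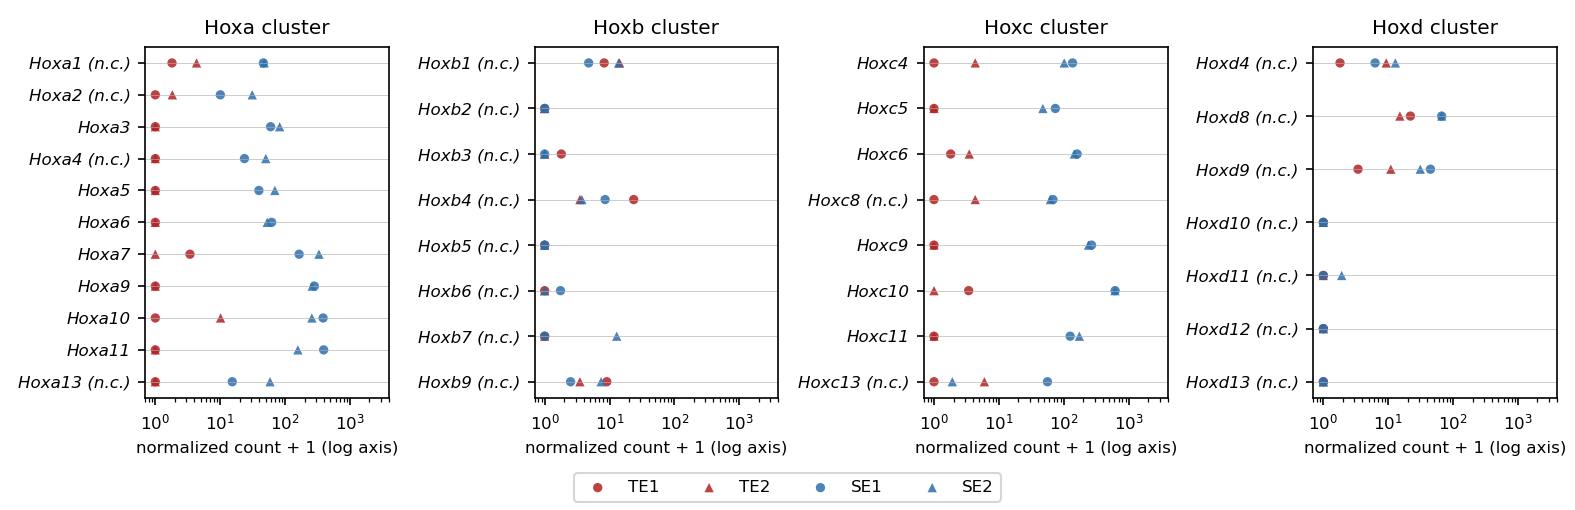
Normalized count + 1 (logarithmic axis) of each tested gene of the 4 Hox clusters in TE replicates 1 and 2 (red circle and triangle) and SE replicates 1 and 2 (blue circle and triangle), in cluster order; n.c. marks a gene not called. For the genes called in the Hoxa and Hoxc panels the SE points lie to the right of the TE points, most of which lie at a count of 0 (plotted at 1), and in the Hoxb and Hoxd panels no gene was called.

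Other regional transcription factors differed both ways, 8 higher and 4 lower in TE of 34 tested. Tlx1, Pitx1 and Meis2 were among the higher. Tlx1 stood at 189 and 225 in TE and 0 in both SE libraries, at least 82.7-fold higher, Pitx1, a hindlimb factor, at 184 and 120.5 against 0 and 6.41, and the Hox cofactor Meis2 at 642 and 696 against 62.7 and 82.4 (3.21 ± 0.43). Tbx3, a limb and heart factor, was higher by 2.38 ± 0.30. In the other direction Sim2, known from limb muscle precursors, stood at 132 and 153 in SE and 0 in both TE libraries, at least 58-fold lower, and the hindlimb factor Tbx4 at 140.4 and 136 against 2.42 and 8.31. The heart factor Nkx2-5, outside the list but among the genes with the widest gap, was at 392 and 258 in TE and 0 in both SE libraries. Without TE replicate 2 the count of higher genes was 4, as Meis1, Twist1, Zic1 and Isl1 were lost.

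Imprinted and fetal growth genes divided the lines sharply but without a common direction. Imprinted genes are read from 1 parental copy and many of them set fetal growth. Of 32 tested, 6 were higher and 6 lower in TE. The growth factor gene Igf2 stood at 137570 and 138940 normalized counts in TE and 17759 and 51075 in SE (2.01 ± 0.42). Its neighbour H19, read from the other parental copy, had no count in either TE library against 132990 and 299940 in SE, at least 88074-fold lower. Cdkn1c, a cell cycle inhibitor of the same chromosome region, stood at 16591 and 15434 in TE and 463 and 2371 in SE (3.50 ± 0.61). Mest and Plagl1 ran the other way, Mest at 33.1 and 85.6 against 19391 and 13469 and the zinc finger factor Plagl1 at 25.8 and 23.3 against 7383 and 3864 (-7.83 ± 0.42, adjusted p = 2.03e-05 from edgeR). The calls of Igf2, Zdbf2 and Sgce were lost with only TE and SE in the fit (adjusted p from 0.0606 to 0.0703), Sgce and Nnat also without TE replicate 1, TE replicate 2 or SE replicate 1, and Peg10, Sgce and Mest lie on chromosome 6.

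Fetal regulators were similarly divided. Nfib, a factor of fetal muscle development whose relative Nfix turns on the fetal program, stood at 3279 and 2952 in TE and 173 and 207 in SE (4.04 ± 0.21, adjusted p = 2.03e-05, edgeR). Igf2bp1, an RNA-binding protein of fetal tissues, stood at 1229.9 and 1201 against 47.6 and 77.8, and Mycn at 124 and 188 against 0 in both SE libraries, at least 62.3-fold higher. Igf2bp1 was not called by DESeq2 (adjusted p = 0.0973). Hmga1, a chromatin protein, was lower at 497 and 508 against 10053 and 4022. It shares sequence with Hmga1b, and the sum of both was 1662 and 1531 in TE and 10097 and 4031 in SE.

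Within the myogenic program itself calls were frequent, but not among the factors Pax7, Myf5 and Myog. Of 29 regulators 2 were higher (4 without SE replicate 2) and 9 lower. Pax7 (-0.06 ± 0.27), Myf5 (0.13) and Myog (0.41) were not called, and Myog stood at 12051 and 12763 in TE against 4214 and 14412 in SE. Myod1 was lower at 5204 and 5194 against 11084 and 11415 (-1.11 ± 0.23, adjusted p = 0.019, edgeR), a call lost without either TE replicate (adjusted p up to 0.154). Factors that act before Myod1 in migrating limb precursors were close to absent from TE: Lbx1 stood at 3.23 and 2.49 against 815 and 609 and Pax3 at 6.46 and 0 against 296 and 156. Of the somite genes, Meox1 was higher at 292 and 368 against 14.3 and 2.75 (5.21 ± 0.64) and Dmrt2 at 393 and 433 against 61.1 and 124.

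The inhibitors of myogenic basic helix-loop-helix factors were lower together. Id2 stood at 69.4 and 36.6 normalized counts in TE and 1972 and 1105 in SE (-4.86 ± 0.44), Id3 at 178 and 271 against 1913 and 1142 and Id1 at 222 and 172 against 1202 and 808. All 3 were kept under every alternative. Among 28 surface and quiescence genes 3 were higher and 7 lower. The lower count was 2 without TE replicate 1 and 3 without TE replicate 2 or with only TE and SE in the fit, and the higher count 1 without TE replicate 2 or with only TE and SE and 5 without SE replicate 2. Spry1, an inhibitor of receptor tyrosine kinase signals, stood at 1194 and 1403 against 166 and 465 (2.04 ± 0.39) and the cadherin Cdh15 at 7142 and 7179 against 3161 and 3799.9. Vcam1, which the sort used, was lower at 626 and 646 against 1884 and 1106 (-1.23 ± 0.27). Spry1 (adjusted p = 0.0569) and Vcam1 lost their calls with only TE and SE in the fit, and Vcam1 and Cdh15 without TE replicate 1, TE replicate 2 or SE replicate 1.

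Among the signaling pathways the bone morphogenetic protein (BMP) genes showed the highest share of calls, with 3 higher and 8 lower of 25. BMP ligands bind serine-threonine kinase receptors that activate Smad proteins, whose best-known targets are the Id genes, and 3 of the Id genes stand in the list of myogenic regulators as well. The ligands were divided. Bmp4 stood at 696 and 788 in TE and 29.4 and 8.24 in SE (5.25 ± 0.47, adjusted p = 0.000296 from edgeR) and Bmp6 at 94.5 and 136 against 15.9 and 9.15, whereas Bmp2 was at 0 in both TE libraries and 37.7 and 40.3 in SE. Of the targets, Id1, Id2, Id3 and Id4 and the inhibitory Smad6 (76.7 and 64.8 against 247 and 185) were all lower. Smad6 lost its call without TE replicate 1, TE replicate 2 or SE replicate 1, and Id4 without TE replicate 2, where 5 genes of the list were lower.

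In the related transforming growth factor beta list 5 of 24 genes were lower and none higher. Ltbp1 and Ltbp3, which hold the latent ligand in the matrix, stood at 1215 and 1313 against 5606 and 2544 and at 1675 and 1740 against 4385 and 4122. The ligand Gdf11 differed by -1.35. The count was 1 without TE replicate 1, where Ltbp1, Ltbp3, Gdf11 and Fst lost their calls, and 3 without TE replicate 2, where Ltbp3 and Fst did. In the Wnt list 5 genes were higher and 4 lower of 44, with 3 higher without TE replicate 2, 8 lower without SE replicate 2, and 10 higher and 10 lower by DESeq2. The receptor Fzd4 stood at 2007 and 1608 against 201 and 293 (2.87 ± 0.24) and the feedback targets Axin2 and Nkd1 differed by 2.03 and 2.09, while the secreted inhibitor Dkk2 stood at 2.42 and 2.49 against 139 and 89.7. Axin2 (adjusted p = 0.0548) and Lrp6 were not called without TE replicate 2. Gli2, a transcription factor of the Hedgehog pathway, was higher at 317 and 317 against 55.9 and 22 (3.01 ± 0.37).

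Matrix genes differed both ways. Myogenic cells both sit on and secrete matrix, and proteases, their inhibitors and structural proteins set its turnover. Of 35 proteases and inhibitors 10 were lower in TE and 2 higher. Serpine2, an inhibitor of thrombin and plasminogen activators, stood at 93.7 and 98.9 against 919 and 854 (-3.20 ± 0.20, adjusted p = 4.07e-05, edgeR), the gelatinase Mmp2 at 474 and 346 against 2200.4 and 1990.1 and urokinase, Plau, at 558 and 387 against 2342 and 1799. The inhibitor Timp2 was lower too (-1.40), so that proteases and their inhibitors were lower side by side. The aggrecanases Adamts5 (1991 and 2266 against 115 and 631) and Adamts9 were higher, both calls being lost with only TE and SE in the fit, and 4 of the list were higher without SE replicate 2.

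Of 44 collagen genes 3 were higher and 10 lower (5 with only TE and SE in the fit), and the 2 chains of type I collagen were among both. Col1a1 stood at 283 and 130.5 normalized counts in TE and 3221 and 8089 in SE (-4.77 ± 0.57), and Col1a2 at 20451 and 20441 against 1535 and 4079 (2.87 ± 0.47). Both TE libraries were low for Col1a1 and high for Col1a2, and both calls were kept under every alternative. Col1a2 lies on chromosome 6, with a difference above that chromosome's median of 0.585. Col6a3 (-3.27), of type VI collagen, was lower. Among 36 glycoproteins and proteoglycans 5 were higher and 5 lower, with 9 lower without SE replicate 1 and 8 higher and 8 lower without SE replicate 2. Prelp stood at 607 and 611 against 18.9 and 51.3, the elastic fibre proteins Mfap4 and Fbln2 differed by 3.96 and 2.21, Thbs2 stood at 21.8 and 13.3 against 1212 and 703 and Spp1, the osteopontin gene, at 3038 and 3155 against 68491 and 21342. The guidance genes of cells and axons were taken as 1 class of semaphorins, plexins, ephrins, slits and netrins with their receptors. Of 68 tested 2 were higher, Sema3c and Slit2, and 10 lower, with a median of -0.562. With only TE and SE in the fit 0 were higher and 7 lower, and the lower count also fell without TE replicate 2.

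In several lists the median difference between the SE replicates was larger in size than that between the lines. Among them were 5 lists, of DNA replication, mitosis, the thick filament, the thin filament and excitation-contraction coupling. Muscle energy enzymes showed it too, at 1.67 between the SE replicates and -0.891 between the lines. So did the dystrophin glycoprotein complex (0.932 and 0.0764) and the clustered histones (-0.864 and -0.663). The acetylcholine receptor and synapse list (0.12 and -0.282) did not, nor did myoblast fusion (0 and 0.344). The inhibitors of the cell cycle with the D cyclins (0.103 and 0.147) did not either. Of the 14 acetylcholine receptor and synapse genes 3 were lower, calls that rested on both TE libraries. No gene of the 32 of DNA replication or the 34 of mitosis was called by edgeR, with 4 of each at an unadjusted p under 0.05 and 2 and 0 called by DESeq2, and of the contractile lists 4 of 20 thick filament genes, 2 of 35 thin filament and Z disc genes and 1 of 26 excitation-contraction genes were. Without SE replicate 1 the lower calls of the thick and thin filament and excitation-contraction lists were 6, 8 and 3, in place of 3, 2 and 1, and the thin filament list had none without either TE replicate. Within SE, replicate 2 was above replicate 1 in all 20 thick filament genes, by a median of 1.36 (log2), in 33 of 35 thin filament genes and in all 26 excitation-contraction genes. Replicate 1 was above replicate 2 in all 34 mitotic genes, by a median of 1.06, and in 30 of 32 replication genes. The TE replicates differed by no more than 0.0997 in the medians of these 5 lists.

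In these 5 lists the sign of the difference between the lines therefore rested on which SE library was used. The median of the excitation-contraction list was -0.177 with both, -0.571 without SE replicate 1 and 0.582 without SE replicate 2, and that of the mitotic list -0.514, 0.134 and -0.948. Embryonic myosin, Myh3, illustrates the spread at 67818 and 71473 in TE and 71825 and 135720 in SE (-0.58 ± 0.60, adjusted p = 0.684 from edgeR). Against this background a few contractile genes were called. The adult fast myosin Myh1 stood at 1634 and 2095 against 31049 and 68259 (-4.73 ± 0.43) and its neighbour Myh2 at 292 and 376 against 16.6 and 53.1, 2 genes of such similar sequence that reads may be shared between them. Myoglobin, Mb, stood at 263 and 275 against 1453 and 4324 (-3.42 ± 0.53).

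**Figure D5:**
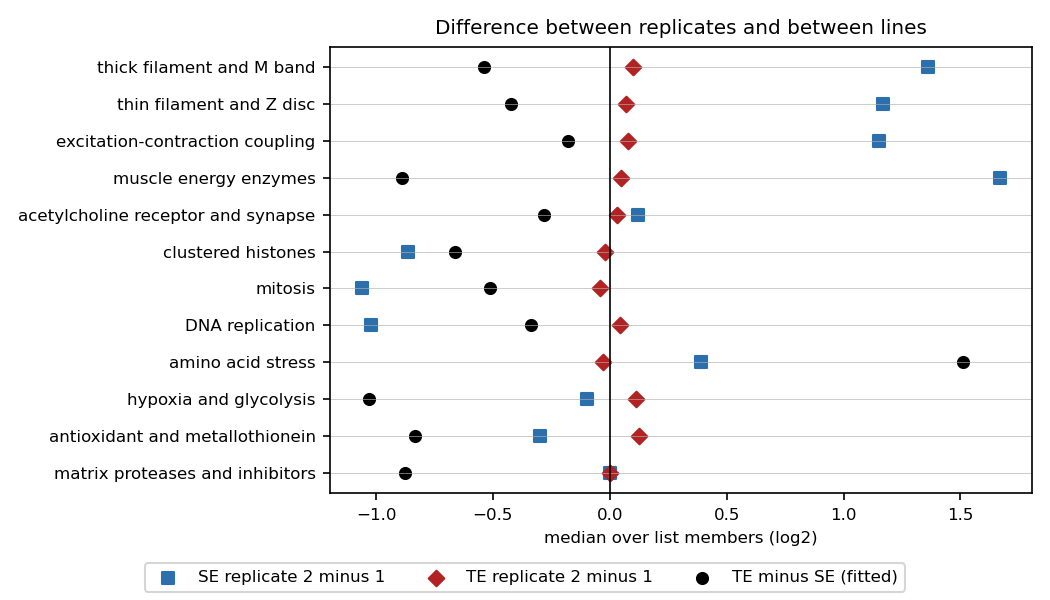
Median over the members of 12 gene lists (log2) of the difference between SE replicates (blue squares), between TE replicates (red diamonds) and between the lines as fitted (black circles). The blue squares reach 1.67 for muscle energy enzymes and -1.06 for mitosis while the red diamonds stay near 0, and for the amino acid, hypoxia and antioxidant lists the black circles lie farther from 0 than the squares.

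Clustered histone genes, which are expressed in S phase, had 11 lower and 2 higher members of 63, and here too SE replicate 1 was above replicate 2 in 60. The lower count was 23 without SE replicate 2, 7 without SE replicate 1 and 5 without TE replicate 2. Of 13 inhibitors of the cell cycle and D cyclins 2 were higher, the inhibitors Cdkn1c and Cdkn1b, and 1 lower, the cyclin gene Ccnd1. The Ccnd1 call was lost with only TE and SE in the fit. Cdkn1b, on chromosome 6, stood at 1416 and 1632 in TE and 263 and 501 in SE (2.00 ± 0.31). Cdkn1a was not called and overlapped at 6743 and 6505 and 4113 and 7852. The housekeeping machinery was close to level. Of 92 nuclear genes of oxidative phosphorylation 2 were called lower and none higher, of 75 mitochondrial ribosomal proteins 1, and of 39 proteasome subunits none by edgeR (1 at an unadjusted p under 0.05, 1 by DESeq2), with medians of -0.0653, 0.178 and -0.0454.

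Immune and early-response genes gave smaller counts. Of 42 interferon-induced genes 7 were higher and 3 lower, with the RNA sensor Ifih1 at 115 and 87.3 in TE and 11.3 and 11 in SE (3.16 ± 0.39, adjusted p = 0.00151 from edgeR). The higher count was 2 with only TE and SE in the fit, 4 without TE replicate 1 and 11 without SE replicate 2, and the lower count was 1 without TE replicate 2. No gene of 20 in antigen presentation by MHC class I was called by edgeR, with 4 at an unadjusted p under 0.05 and 2 called by DESeq2. Of 20 immediate early genes 4 were higher, Klf4 at 2849 and 2793 against 435 and 530.0 and Atf3 at 728 and 532 against 42.3 and 151 among them, and 2 lower, Jun and Maff. Atf3 is also a known target of Atf4. The chemokine Cxcl12 was lower at 46 and 32.4 against 2264 and 632 (-5.20 ± 0.59). Jun lost its call without either TE replicate and Maff without TE replicate 1, which left no early gene lower there, and 7 were higher without SE replicate 2.

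Markers of other cell types ranged from 0 to high levels. Ptprc, Adgre1 and C1qa of macrophages and blood, Kdr and Tie1 of endothelium and Epcam of epithelium were at 0 in all 4 libraries, and the summed macrophage and blood list ranged from 50.9 to 73.1 normalized counts in TE and from 84.5 to 179 in SE. The epithelial list summed to 23.4 and 19.1 in TE and 217 and 76 in SE, the Schwann list to 143 and 152 in TE and 205 and 230 in SE, the pluripotent list to 17 and 0.831 in TE and 72.5 and 58.6 in SE, and no gene of the 3 was called by edgeR (0 to 3 of a list at an unadjusted p under 0.05, 0 to 2 by DESeq2). The endothelial list had 1 gene higher, Eng, and 1 lower, Flt1, of 11, with a median of 0. With only TE and SE in the fit 0 were lower. The sum of the list, 782 and 810 in TE and 198 and 219 in SE, was carried by Eng. This co-receptor for BMP ligands stood at 689 and 671 against 43 and 40.3 (4.02 ± 0.29). In the neural list most of the sum was Nes, an intermediate filament gene that myoblasts also express, at 40605 and 39147 against 22544 and 26830 (adjusted p = 0.1, edgeR), with Map2 alone called (2.64). The tendon and cartilage list had 1 call of 11, Sox9, which was lower. The fibro-adipogenic list summed to 1001 and 961 in TE and 2086 and 3476 in SE, with 1 gene higher and 3 lower of 13 (none higher without TE replicate 1 or SE replicate 1, 1 lower without TE replicate 2). The pericyte and smooth muscle list had 4 genes higher (7 without SE replicate 2) and 1 lower of 13, and its sum ranged from 31600 to 32360 in TE and from 10720 to 29220 in SE. Actg2, an enteric actin on chromosome 6, stood at 273 and 189 in TE and 0.755 and 13.7 in SE and Tagln at 1553 and 1130.1 against 243 and 402, while Rgs5, the defining pericyte marker, was at 0 in both TE libraries and 996 and 1050 in SE, at least 416-fold lower. Fewer cells of a type and less RNA per cell cannot be told apart in bulk libraries, and the part of rare other cells in the programs above was not tested.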

How the data were processed

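RNA of sorted and cultured mouse cells was sequenced from SMARTer Stranded Total RNA-Seq v2 Pico Input libraries. The submitters' processing notes name CASAVA, kallisto 0.44.0 and GRCm38/mm10. The authors deposited kallisto's estimated counts per gene, which need not be whole and were rounded here. Genes with too few counts were dropped by edgeR's filter, leaving 17582 of 24980. One quasi-likelihood model (edgeR 4.0.16, R 4.3.3, TMM scaling) was fitted to all 8 libraries in 4 groups, and TE was set against SE with Benjamini-Hochberg adjustment over all tested genes. A call needed an adjusted p of 0.05 and a fold of 1.25. Groups at or under 3 counts per library were set to that limit, and folds are then lower bounds. DESeq2 1.42.0 and 14 further settings served as alternatives. The fit was tested on simulated data.

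The comparison and gene lists were chosen with earlier results of these data known. A rule named 376 genes: the 8 called genes each way with the widest gap between the nearest TE and SE libraries, up to 3 called members each way per list by fold (at 50 or more normalized counts), the 6 each way whose library share differed most, the first 3 of each list, every member of lists of up to 6, and genes the study discusses. A further 296 list members or near copies were named after their values were seen. Replicate numbers were not taken to pair the lines. Over all tested genes the deviations of same-numbered TE and SE libraries correlated at 0.00288, which cannot show whether they were handled together. By symbol, 98.7% of tested genes were placed in GENCODE M21, and promoter windows came from RefSeq (GRCm38.p6). Ratios between near-identical genes depend on how reads are split. Some list members are not reported here.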

Additional observations from a re-analysis of the deposited data

How the results depend on the processing

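The counts of calls moved more than the directions. Leaving out a replicate gave between 272 and 741 higher and between 381 and 957 lower genes, lowest without TE replicate 2 (272 and 381) and highest without SE replicate 2. Without a filter on low counts 902 were higher and 1358 lower, and DESeq2 called 893 and 1251. The replicate block gave 520 and 685, although the numbers were not taken to pair the samples. Of the 342 called genes named here, 168 kept their call in all 15 alternatives and none was reversed. Calls were lost by 113 without TE replicate 1, 130 without TE replicate 2, 54 without SE replicate 1, 32 without SE replicate 2, 73 with only TE and SE in the fit, 45 with a test against the fold threshold, 14 under the block and 3 with DESeq2. Median-ratio size factors put the median of all genes at -0.0271 (log2) and DESeq2 at -0.0274, in place of -0.00339. Where a call was lost the cause was not tested. The limit of 3 counts stood between 2.26 and 2.75 normalized counts in the 4 libraries, and levels below it could not be resolved.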
